A study of Caenorhabditis elegans with 6 samples.

Results

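The 10 genes described here encode the thioredoxin, peroxiredoxin and glutathione arms of thiol redox control in the nematode Caenorhabditis elegans. They are the thioredoxins trx-1 and trx-2, the thioredoxin reductases trxr-1 and trxr-2, the peroxiredoxins prdx-2, prdx-3 and prdx-6, the glutathione enzymes gcs-1 and gsr-1, and skn-1, a transcription factor of the Nrf family. They were taken by gene symbol, and each was represented by 1 transcript cluster, which is the set of array probes for 1 transcribed locus. All 10 were found, among 25478 genes with a cluster of their own. Their signal was measured on 6 Affymetrix arrays of total RNA from whole hermaphrodites of the wild-type strain N2. Of these, 3 arrays came from animals exposed to C-SPIONs, superparamagnetic iron oxide nanoparticles coated with citrate, at 500 µg/mL in M9 buffer at 50%, and 3 from unexposed control animals in the same buffer. Both groups had grown on plates seeded with bacteria for 48 h to the L4 larval stage and were then kept in buffer for 24 h at 20 °C. Nothing in the labels tells separate cultures from repeat samples of a single culture, and p-values cover no more than the sample-to-sample spread, part or all of which could be technical.

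Thioredoxins are small proteins that reduce disulphide bonds in other proteins, and thioredoxin reductases recharge them with electrons from NADPH. Peroxiredoxins break down hydrogen peroxide through a reactive cysteine and are in turn reduced, in most cases, by thioredoxin. Glutathione is the other large thiol buffer of the cell: glutamate-cysteine ligase begins its synthesis and glutathione reductase returns its oxidised form to the reduced one. In C. elegans SKN-1 switches on many of these detoxification genes under oxidative stress, and gcs-1 is the target most often used to read its activity.

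Among the arrays C-SPION 1 stood apart from its group: over all clusters it correlated more with control 1 (Pearson's r 0.959) than with C-SPION 2 (0.935) or C-SPION 3 (0.949), across clusters that are not independent. The medians over all clusters ran from 4.91 to 5.16 in C-SPION arrays and from 5.07 to 5.19 in control arrays. With each array set to a common median, the median C-SPION minus control difference over all clusters is 0.127, beside 0.04 in the deposited values.

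The question was whether the RNA level of these genes differed after the nanoparticle exposure. No gene of the 10 passed the test, and 9 of the 10 had a 95% interval for the difference that included 0. The exception was trx-1, whose signal was lower in all 3 C-SPION arrays than in any control array. Every difference was computed on log2 signals as C-SPION minus control, in limma with group as the only term, and adjusted p-values are Benjamini-Hochberg values over 26192 clusters with a threshold of 0.05. At that threshold 0 of the 10 genes were called, beside 0.0% of all clusters. At an unadjusted p under 0.05 there was 1 gene of the 10, trx-1, beside 12.5% of all clusters, of which 7.3% were lower and 5.22% higher. The groups did not overlap in 2 of the 10, trx-1 and trx-2, both lower with C-SPIONs, beside 18.6% of all clusters in either direction, 9.24% lower and 9.4% higher. The differences of the 10 genes had a median of 0.08, with 6 above 0 and 4 below, and those of all clusters a median of 0.04. Without C-SPION 1 the same counts were 0 of the 10 called, beside 63 of 26192 clusters, and 4 of the 10 with groups that did not overlap, beside 36.3% of all clusters in that setting.

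**Figure D1:**
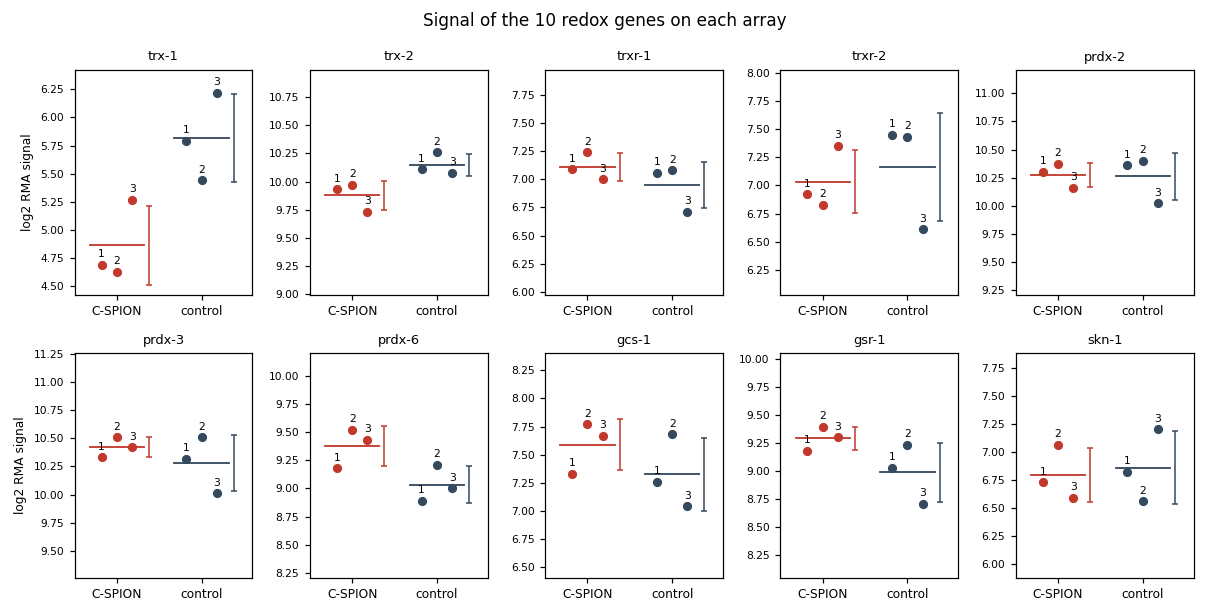
Log2 RMA signal (vertical axes, each spanning 2 log2 units) of the 10 redox genes in the C-SPION and control arrays; points are arrays with their replicate numbers, horizontal lines are group means and bars are SDs (n = 3). The groups lie apart for trx-1 and trx-2, and control 3 is the lowest array in 6 of the 10 panels.

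The cytosolic thioredoxin gene trx-1 (locus B0228.5, cluster 18492793) is known mainly from the ASJ sensory neurons, where its product has been linked to adult lifespan. Its log2 signal was 4.69, 4.63 and 5.27 in the C-SPION arrays, against 5.79, 5.44 and 6.22 in the control arrays. The highest C-SPION array thus lay below the lowest control array. The means were 4.86 ± 0.35 with C-SPIONs and 5.82 ± 0.39 in controls (SD, n = 3 each), and they differed by -0.95 (limma, 95% interval -1.63 to -0.28, adjusted p = 0.311, unadjusted p = 0.0125). On the linear scale this is a ratio of 0.516, with an interval of 0.323 to 0.826. Of all clusters, 3.92% had a lower difference and 4.01% a smaller p. An exact permutation test on the 6 arrays, two-sided, gave p = 0.1, the smallest that 3 against 3 arrays allow. Leaving out each array in turn gave differences between -1.16 and -0.75, with -0.87 without C-SPION 1. The trx-1 cluster was the dimmest of the 10, with 53.7% of all clusters dimmer over the 6 arrays, and its signal over background is unknown. Its C-SPION mean was below the median of every array, and its control mean was above it.

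Markers of neurons were lower in the same arrays. The mean log2 signal of 14 neuron markers was 7.05, 6.62 and 6.61 in the C-SPION arrays, against 7.60, 7.83 and 7.24 in the control arrays. Of the 14, 12 had a difference below 0, 8 of them at an unadjusted p under 0.05 and 0 past the threshold (limma). Among them rab-3, a synaptic vesicle GTPase gene, stood at -1.69 (limma adjusted p = 0.295), and unc-11, a clathrin adaptor gene, at 0.08. For 6 genes known from ASJ, some of which other sensory neurons also express, the mean was 5.67, 5.02 and 5.37 in the C-SPION arrays and 5.69, 5.36 and 5.81 in the control arrays. These groups overlapped. All 6 had a difference below 0, between -0.69 for daf-11, a guanylyl cyclase gene, and -0.06 for tax-4, a cyclic nucleotide-gated channel subunit gene. The gene closest to an ASJ marker of its own, ssu-1, which encodes a sulfotransferase, was at 4.80, 3.52 and 4.45 with C-SPIONs and at 4.98, 3.53 and 4.74 in controls, a difference of -0.16 (95% interval -1.28 to 0.96). The part of neuronal RNA in the trx-1 value was not tested, and in whole-animal RNA fewer cells of a type and less RNA per cell cannot be told apart. Markers of the germ line ran the other way, at 8.08, 8.40 and 8.42 with C-SPIONs, against 7.66, 7.70 and 7.08 in controls (means of 14 genes, with all 14 differences above 0 and 11 at an unadjusted p under 0.05). Body wall and pharyngeal muscle markers were at 7.47 to 7.77 with C-SPIONs, against 8.10 to 8.64 in controls (means of 10 genes, with all 10 differences below 0 and 4 at an unadjusted p under 0.05). Of all clusters, 7.3% were lower and 5.22% higher at that unadjusted p (limma). The groups did not overlap for 8 neuron markers and 5 muscle markers, all lower, beside 9.24% of all clusters. They did not overlap for 14 germ line markers, all higher, beside 9.4% of all clusters. Of 10 hypodermis markers 8 had a difference above 0 and 2 below, with a median of 0.26, 0 at an unadjusted p under 0.05 (limma) and 0 with groups apart. The part of these tissues in the values of the other 9 genes was not tested either.

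**Figure D2:**
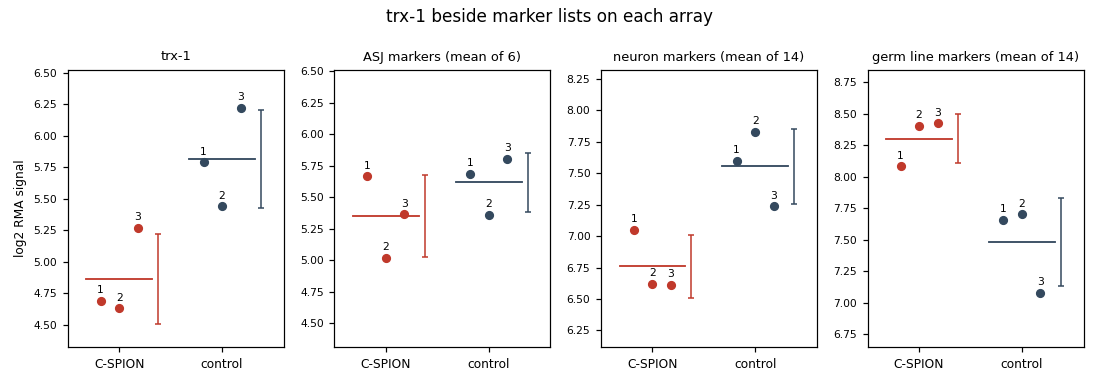
Log2 RMA signal of trx-1 and mean log2 signal of ASJ, neuron and germ line marker lists, in the C-SPION and control arrays (vertical axes each span 2.2 log2 units; points are arrays with replicate numbers, lines are group means, bars are SDs, n = 3). The ASJ panel is the 1 in which the groups overlap; the neuron list is lower and the germ line list higher in every C-SPION array.

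The mitochondrial thioredoxin gene trx-2 (B0024.9, cluster 18561508) was at 9.93, 9.97 and 9.73 in the C-SPION arrays, against 10.11, 10.26 and 10.08 in the control arrays. The groups did not overlap, with a gap of 0.11 between the nearest arrays, and after median centring of the arrays they did overlap. The difference was -0.27 (limma, 95% interval -0.72 to 0.17, adjusted p = 0.575), a ratio of 0.827 with an interval of 0.609 to 1.12. It stayed below 0 in every setting tried, between -0.34 and -0.18. Both thioredoxin genes thus had lower C-SPION means, but only the interval of trx-1 lay wholly below 0. Whether their differences differ from each other was not tested.

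The thioredoxin reductase genes showed overlapping groups. The cytosolic enzyme is encoded by trxr-1 (C06G3.7, cluster 18533288), known as the only selenoprotein gene of this nematode. It was at 7.09, 7.24 and 7.0 in the C-SPION arrays, against 7.06, 7.08 and 6.71 in the control arrays. The C-SPION arrays lay beside controls 1 and 2, and control 3 lay below all of them. The difference was 0.16 (limma, 95% interval -0.32 to 0.64, adjusted p = 0.772), with 0.04 without control 3 and 0.10 without C-SPION 2. The mitochondrial reductase gene trxr-2 (ZK637.10, cluster 18519878) was at 6.92, 6.83 and 7.35 in the C-SPION arrays, against 7.45, 7.43 and 6.61 in the control arrays. Control 3 was the lowest array and controls 1 and 2 the highest, so that the control SD of 0.48 was the widest among the 10 genes. The difference was -0.13 (limma, 95% interval -0.83 to 0.57, adjusted p = 0.882), and it lay between -0.41 without control 3 and 0.01 without control 1, with -0.07 without C-SPION 1.

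The peroxiredoxin genes prdx-2 and prdx-3 were near their control levels. The product of prdx-2 (F09E5.15, cluster 18481824) is the main cytosolic peroxiredoxin and is known for its part in hydrogen peroxide signalling. Its signal was 10.30, 10.37 and 10.16 in the C-SPION arrays, against 10.36, 10.40 and 10.02 in the control arrays. The C-SPION values all fell inside the control range. The difference was 0.02 (limma, 95% interval -0.46 to 0.49, adjusted p = 0.980), and its sign turned without control 3, to -0.10, and without C-SPION 2, to -0.03. The ratio of 1.01 had an interval of 0.728 to 1.41. The mitochondrial peroxiredoxin gene prdx-3 (R07E5.2, cluster 18514455) was at 10.33, 10.51 and 10.42 in the C-SPION arrays, against 10.32, 10.51 and 10.01 in the control arrays. Apart from control 3 the arrays of both groups covered nearly the same range. The difference was 0.14 (limma, 95% interval -0.35 to 0.63, adjusted p = 0.812), with 0.005 without control 3 and 0.26 without control 2.

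The third peroxiredoxin gene, prdx-6 (Y38C1AA.11, cluster 18543921), belongs to the Prdx6 type, which in mammals is reduced with glutathione rather than thioredoxin. It was at 9.18, 9.52 and 9.43 in the C-SPION arrays, against 8.89, 9.21 and 9.0 in the control arrays. The groups overlapped at 1 point, since C-SPION 1 was just below control 2. The means were 9.38 ± 0.18 with C-SPIONs and 9.03 ± 0.16 in controls (SD, n = 3 each). The difference of 0.34 was the highest of the 10 genes (limma, 95% interval -0.13 to 0.82, adjusted p = 0.518), a ratio of 1.27 with an interval of 0.911 to 1.77. It stayed between 0.27 and 0.44 when each array was left out.

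The glutathione genes had higher C-SPION means that did not pass. The catalytic subunit of glutamate-cysteine ligase is encoded by gcs-1 (F37B12.2, cluster 18498896). Its signal was 7.33, 7.77 and 7.67 in the C-SPION arrays, against 7.26, 7.68 and 7.04 in the control arrays. Control 2 was about as high as the upper C-SPION arrays, and C-SPION 1 lay beside control 1. The difference was 0.26 (limma, 95% interval -0.31 to 0.84, adjusted p = 0.686), with 0.12 without control 3, 0.17 without C-SPION 2 and 0.44 without control 2. Glutathione reductase is encoded by gsr-1 (C46F11.2, cluster 18510198), which is known to be essential for embryonic development. It was at 9.18, 9.39 and 9.30 in the C-SPION arrays, against 9.03, 9.23 and 8.71 in the control arrays. Only control 2 reached into the C-SPION range. The difference was 0.30 (limma, 95% interval -0.20 to 0.80, adjusted p = 0.590), or 0.16 without control 3. The ratio intervals were 0.804 to 1.79 for gcs-1 and 0.870 to 1.74 for gsr-1.

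The transcription factor gene skn-1 (T19E7.2, cluster 18556325) was at 6.73, 7.06 and 6.59 in the C-SPION arrays, against 6.82, 6.56 and 7.20 in the control arrays. Control 3 was the highest array and control 2 the lowest, with the C-SPION values between them. The difference was -0.07 (limma, 95% interval -0.65 to 0.51, adjusted p = 0.932), and it turned to 0.10 without control 3, to 0.04 without C-SPION 3 and to 0.02 after median centring of the arrays. SKN-1 is regulated largely through its protein, which these arrays did not measure.

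**Figure D3:**
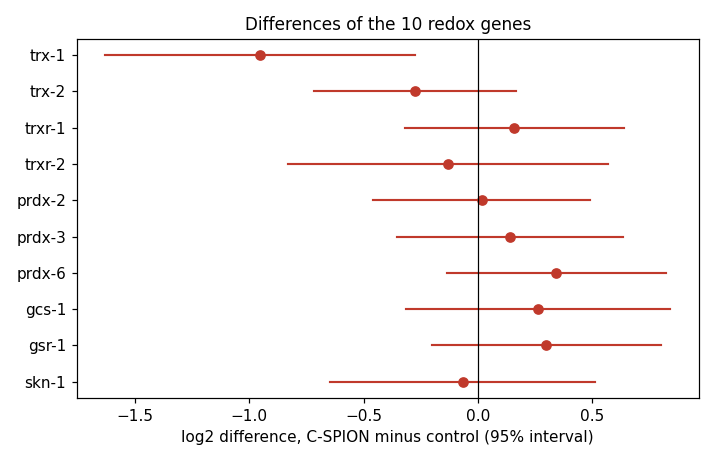
Log2 difference, C-SPION minus control, of the 10 redox genes (points) with 95% intervals from limma (lines, 3 arrays per group). The interval of trx-1, from -1.63 to -0.28, is the 1 interval that does not include 0.

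The intervals bound the changes that the arrays leave possible. For all 10 genes the upper bound of the ratio was below 2-fold, from 0.826 for trx-1 to 1.79 for gcs-1. The lower bounds of the 9 genes other than trx-1 were above 0.5, the lowest being 0.563 for trxr-2. These are single-gene intervals, not adjusted for the number of genes. They do not exclude larger changes, since part or all of the spread could be technical.

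Most of the 10 genes, but not all, had the same array as their low point. Control 3 was the lowest of the 6 arrays in 6 of the 10 genes, namely trxr-1, trxr-2, prdx-2, prdx-3, gcs-1 and gsr-1, whereas it was the lowest in 20.8% of all clusters. It was the highest array for trx-1 and skn-1. Relative to the control mean the median gene of the 10 stood at 0.02, 0.22 and 0.10 in C-SPION 1 to 3, and at 0.01, 0.16 and -0.24 in controls 1 to 3. Control 3 was also lowest for the germ line marker list, at 7.08. The same held for the mean of the genes that supply NADPH, described below, at 7.48, but not for the other pathway lists. The SD within a group had a median over the 10 genes of 0.15 in C-SPION arrays and 0.26 in control arrays, beside 0.30 over all clusters in each group. The C-SPION SD was the smaller in 8 of the 10 genes, for which no share over all clusters was computed. The genes other than trx-1 were each brighter than at least 72.8% of all clusters. The SDs over all clusters were not matched for signal level.

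For the 2 genes with the smallest unadjusted p, the most similar of 25477 other genes were found by correlation over the 6 arrays, as a description. The genes most like trx-1 were F02D8.1, W04B5.2, C55A6.6, dop-6, which encodes a predicted dopamine receptor, and C30A5.16, with Pearson's r from 0.985 to 0.998 and Spearman's rho from 0.886 to 1.0. Their differences lay between -0.93 and -0.41. The genes most like prdx-6 were csn-4, a COP9 signalosome subunit gene, C08B11.9, C06E4.1, atl-1, the homologue of the checkpoint kinase ATR, and W02D3.4, with r from 0.991 to 0.996. Their differences lay between 0.15 and 0.67. In all, 50 genes for trx-1 and 168 for prdx-6 had r above 0.95. The count for other genes was not computed, and over 6 arrays high values can arise in so wide a search without any link. Of these neighbours dop-6 (means 3.67 with C-SPIONs and 4.08 in controls) and C06E4.1 (2.68 and 2.53) were dim.

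The neighbouring genes of the same pathways were followed in 6 lists of 66 distinct measured genes. None passed at an adjusted p under 0.05, and 6 of the 66, or 9.09%, had an unadjusted p under 0.05, beside the 12.5% of all clusters given above. The groups did not overlap in 8 of the 66, of which 5 were higher and 3 lower with C-SPIONs, beside 18.6% of all clusters.

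Among other thioredoxin-like and methionine sulfoxide repair genes, 10 of 14 had a difference above 0, with a median of 0.18. The thioredoxin gene trx-3, known from the intestine, was at 6.90, 7.17 and 6.97 in the C-SPION arrays, against 7.51, 8.0 and 8.04 in the control arrays. Its groups lay apart, with a difference of -0.84 (limma, 95% interval -1.37 to -0.31, adjusted p = 0.295). The other thioredoxin genes of the list, named after their values had been seen, had overlapping groups: trx-4 stood at -0.33 (95% interval -0.93 to 0.27) and trx-5 at -0.09 (95% interval -0.81 to 0.64). The trx-5 cluster was dim, with means of 3.07 with C-SPIONs and 3.16 in controls. The mean of 11 intestinal markers was 8.18, 8.08 and 7.95 with C-SPIONs and 8.35, 8.42 and 8.14 in controls. Of the 11 differences 6 were below 0 and 5 above, from -1.70 for pho-1 to 0.38 for spl-1. At an unadjusted p under 0.05 there were 3, all lower, beside 7.3% of all clusters lower (limma). The part of intestinal RNA in the trx-3 value was not tested. The protein disulphide isomerase gene pdi-1 was at 9.04, 8.84 and 9.13 with C-SPIONs, against 8.53, 8.47 and 8.52 in controls, a difference of 0.50 (limma, 95% interval 0.06 to 0.94, adjusted p = 0.366). The gene dnj-27, whose product is a thioredoxin-domain protein of the endoplasmic reticulum, stood at 0.70 (limma, 95% interval 0.04 to 1.36, adjusted p = 0.380). For both of these genes every C-SPION array lay above every control array.

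The other glutathione synthesis and glutaredoxin genes had 7 of 10 differences above 0 and a median of 0.16. The regulatory subunit of glutamate-cysteine ligase, gclm-1, was at 7.98, 8.32 and 8.21 in the C-SPION arrays, against 7.79, 8.05 and 7.77 in the control arrays, a difference of 0.30 (limma, 95% interval -0.17 to 0.77, adjusted p = 0.569). Glutathione synthetase, gss-1, was at 6.60, 7.30 and 7.13 with C-SPIONs, against 7.10, 6.96 and 6.35 in controls, a difference of 0.21 (95% interval -0.48 to 0.89) that lay between -0.02 without control 3 and 0.41 without C-SPION 1. These genes carry the remaining steps of glutathione synthesis beside gcs-1 and were named after their values had been seen. The genes with the smallest p were hmt-1, a transporter gene needed for heavy metal tolerance, at 0.53, the omega-class glutathione transferase gene gsto-1 at 0.59, or 0.39 without C-SPION 3, and the glutaredoxin gene glrx-5 at -0.49, with limma adjusted p from 0.455 to 0.467. The groups overlapped in all 10 genes of the list.

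The 8 glutathione peroxidase genes had a median of 0.005, with 5 above 0, and the median was -0.30 without C-SPION 2 and 0.09 without control 2. The gene gpx-7 was at 8.16, 8.80 and 8.69 in the C-SPION arrays, against 7.96, 7.79 and 8.06 in the control arrays, so that the groups lay apart (difference 0.61, limma 95% interval 0.06 to 1.17, adjusted p = 0.372). In the other direction gpx-6 stood at -0.51, or -0.18 without control 3, and gpx-8 at -0.31, or -0.12 without C-SPION 1 and -0.59 without control 1. The gpx-8 cluster was dim, with means of 2.85 with C-SPIONs and 3.16 in controls, below the median of every array. The genes that supply NADPH, which both reductases consume, had 7 of 8 differences above 0 and 1 at 0, with a median of 0.24. Their smallest adjusted p was 0.436, for the transketolase gene tkt-1, at 7.37, 7.95 and 7.99 with C-SPIONs, against 7.23, 7.49 and 6.98 in controls. The 6-phosphogluconate dehydrogenase gene T25B9.9 stood at 0.50, or 0.20 without control 3, and the isocitrate dehydrogenase gene idh-1 at 0.28, with 0.14 without control 3 and 0.44 without control 2. In 0 of the 8 genes did the groups lie apart.

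Genes around SKN-1 had differences of both signs. Of 13 measured regulators 7 were above 0 and 6 below, with a median of 0.02. The kinase gene akt-2, which acts in insulin signalling, was at 6.32, 6.12 and 6.16 in the C-SPION arrays, against 6.49, 6.76 and 6.84 in the control arrays, a difference of -0.50 (limma, 95% interval -0.96 to -0.03, adjusted p = 0.380). The mitochondrial phosphatase gene pgam-5 stood at 0.49, or 0.25 without control 3, and the innate immune adaptor gene tir-1 at -0.40. The repressor gene wdr-23, whose product targets SKN-1 for degradation and which lies outside the rule for named genes, stood at 0.12 (95% interval -0.36 to 0.60), or 0.02 without C-SPION 1. Of 14 measured SKN-1 target genes 4 were above 0 and 10 below, with a median of -0.12. The median was -0.04 with the filter on dim clusters and -0.03 after median centring. Among the lower genes gst-10, gst-14, gst-30, dhs-8 and ugt-11 were dim, with group means from 3.34 to 4.57, below the median of every array. The glutathione transferase gene gst-12 was at 5.51, 5.36 and 5.69 in the C-SPION arrays, against 4.52, 5.16 and 4.13 in the control arrays, a difference of 0.92 (limma, 95% interval 0.22 to 1.61, adjusted p = 0.328). The control mean of gst-12, 4.60, was also below the median of every array. The groups lay apart for gst-12, which was higher, and for gst-4, at 5.54, 5.25 and 5.30 with C-SPIONs, against 5.99, 5.64 and 5.55 in controls. The gene gst-4, the usual reporter of SKN-1 activity beside gcs-1, was named after its values had been seen. Its difference was -0.36 (limma, 95% interval -0.86 to 0.14, adjusted p = 0.515), or -0.23 without control 1, and its nearest arrays were 5.54 with C-SPIONs and 5.55 in controls. The transferase gene gst-14 stood at -0.73 (limma, 95% interval -1.56 to 0.10, adjusted p = 0.441).

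**Figure D4:**
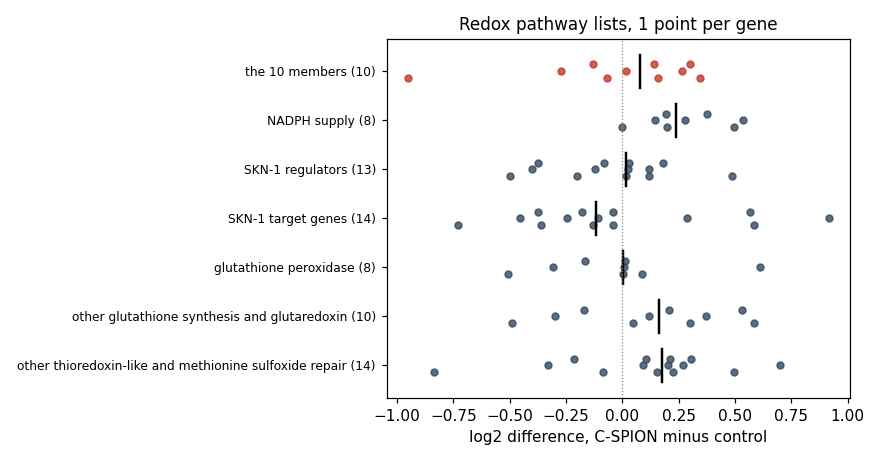
Log2 difference, C-SPION minus control (horizontal axis), of the 10 redox genes and of the genes in 6 related lists, with 1 point per gene, the number of genes in brackets and a vertical bar at each list's median. The medians lie between -0.12 for SKN-1 target genes and 0.24 for NADPH supply, and trx-1 at -0.95 is the lowest point shown.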

How the data were processed

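Whole-animal RNA was amplified into biotin-labelled cDNA and hybridised to 1-colour arrays. The authors' deposited values are log2 signals with 2 decimals, for which the submitters' processing notes name RMA and Affymetrix Expression Console; the sources used here give no version, setting or genome build. RMA normalises arrays to each other, so a change of total RNA per animal is not seen, although the medians of the deposited arrays still differ, and it compresses small changes near background. Of 29317 clusters, 26192 with a gene symbol were tested (25546 with 1 symbol, 25495 of them matched by gene ID to the RefSeq table of WBcel235). Each of the 10 genes had 1 cluster. The comparison used limma 3.58.1 (lmFit, eBayes, two-sided) under R 4.3.3 and was tested on simulated data. Array number limits the precision; scanner files and detection calls were not used here. The third control's source name repeats that of the second, and its title was followed. Pearson correlations between arrays ran from 0.935 to 0.968.

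The genes and lists were chosen with earlier results of these data known. All 10 genes were named, with up to 3 genes of each pathway list by smallest unadjusted p and 5 nearest genes by correlation for each of 2 genes. E01A2.1 was matched as gclm-1; nsy-1, aip-1 and opt-2 were not matched. The settings varied were a replicate block, each array left out in turn, median centring, quantile normalization, a filter on dim clusters, all clusters, trend and robust eBayes, and array weights.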

Additional observations from a re-analysis of the deposited data

How the results depend on the processing

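None of the 10 genes and none of the 66 pathway genes passed under any of the 13 alternatives, and trx-1 kept its sign in all 13, between -1.16 and -0.71, with adjusted p from 0.198 to 0.606; trx-2, trxr-1, prdx-3, prdx-6, gcs-1 and gsr-1 kept theirs too. The sign of trxr-2 turned without control 1 (0.0133) or control 2 (0.00333), within a range of -0.407 to 0.0133 over the arrays left out, that of prdx-2 without C-SPION 2 (-0.030) or control 3 (-0.103) and with array weights (-0.0815), within -0.103 to 0.0867, and that of skn-1 without C-SPION 3 (0.035) or control 3 (0.103) and with median centring (0.0233), within -0.217 to 0.103. Over all clusters, 63 passed without C-SPION 1, and 0 under every other alternative. The counts of 0 under those alternatives thus hold for every cluster and are not particular to these genes. The count of the 10 genes whose groups did not overlap was 2 to 6 with 1 array left out, which is easier with fewer arrays: 4 without C-SPION 1, beside 36.3% of all clusters, and 6 without control 2, beside 26.8%. It was 1 with median centring, beside 17.1%. The pathway genes at an unadjusted p under 0.05 were 2 to 10 with 1 array left out, 11 with array weights and 2 with the replicate block. No share of all clusters at that p was computed for these settings, so these counts are not read as particular to the pathway genes. The median of the SKN-1 regulators was -0.242 to 0.0867 with 1 array left out, the lowest without control 3, and that of the glutathione peroxidases -0.302 without C-SPION 2 and -0.143 without control 1. The replicate numbers were not taken as pairs in the main fit. Deviations from the group means correlated at 0.222, 0.203 and 0.00786 for same-numbered arrays, replicates 1 to 3. For arrays of unlike number they correlated between -0.266 (C-SPION 2 with control 1) and 0.0581 (C-SPION 2 with control 3). Replicates 1 and 2 thus went most with the control of their own number, and a shared replicate effect was not tested. With the replicate block 0 clusters passed and trx-1 stayed at -0.95. Averaging the clusters of a symbol could not change the values of the 10 genes, since each has 1, and it was not run as a check. The cause of these changes was not tested.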
